A study of Mus musculus with 2 samples.

Results

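AP-1 is a family of transcription factors that bind DNA as pairs of basic leucine zipper proteins. Fos proteins pair with Jun proteins and cannot pair with themselves, whereas Jun proteins can do both. Most of the genes are immediate-early genes, which are switched on within minutes by growth factors, cytokines or stress through the ERK, JNK and p38 kinases and are switched off again by short-lived mRNAs and proteins. In hematopoietic cells, AP-1 is known for roles in myeloid differentiation, proliferation and the response to cytokines. The 8 genes described here were taken by symbol from the 34745 genes measured, and they had been chosen by their lower reads and FPKM in the week-3 library than in the week-0 library. Fos, Fosb, Fosl1 and Fosl2 are the Fos family, and Jun, Junb and Jund are the Jun family. Atf3 encodes a stress-induced factor of the ATF/CREB family that pairs with Jun proteins and is a member of neither family.

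The RNA came from BM LSKs of C57BL/6 Scl/tTA-BA mice, in which BCR/ABL (BA), the fusion kinase of chronic myelogenous leukemia, is held off by doxycycline. LSKs are lineage-negative, Sca1-positive and c-Kit-positive cells, a fraction that holds hematopoietic stem cells and early progenitors. The week-0 group was the control, still on doxycycline, and the week-3 group was taken 3 weeks after withdrawal, when BA was expressed. Both groups carry the Scl/tTA and TRE-BA transgenes, so they differ in doxycycline and time and not in genotype. The Scl promoter drives the activator only in part of the hematopoietic compartment, and the LSKs were not sorted for BA. Each group was 1 library, for which the cells of 3 mice had been pooled. The spread between mice is therefore unknown, no test between the groups was possible, and each comparison below is between these 2 libraries.

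The depth was 6356164 reads on genes for the week-0 library against 3886695 for the week-3 library. Levels are given as reads and as FPKM (fragments per kilobase of exon per 1000000 reads). A gene was called lower if the ratio of its week-3 FPKM to its week-0 FPKM did not exceed 0.5 and called higher if the ratio reached 2, provided that its FPKM reached 1 in at least 1 of the libraries. Of 11776 such genes, 15.8% were called lower and 12.9% higher, and the median log2 ratio of week-3 to week-0 was 0.10. Intervals at 95% cover counting error only. Kit and Ly6a (Sca1), the sorting markers, were detected in both libraries, with an FPKM of 16.9 and 19.8 at week-0 and of 11.5 and 14.8 at week-3. The endogenous genes of the fusion partners had log2 ratios of -1.07 (Bcr) and -0.75 (Abl1), and RNA of the transgene itself was not analysed here.

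The sequences in front of 5 of the genes are shown because the genes were lower together in these libraries. They also hold some of the short motifs through which such genes are usually described. Of the 8 genes, 7 were matched in the RefSeq promoter table of GRCm38.p6 (all but Fosl1). Each sequence is the 250 bases before the annotated start, 5′ to 3′ on the strand of the gene. Capitals mark TGACG on either strand (the core of the cyclic AMP response element), TGACATCA on either strand (an AP-1-like element), TATAAA in the direction of the gene and the MEF2 box. The Fos window is chr12:85473640-85473889 on the plus strand, the Fosb window chr7:19310046-19310295 on the minus strand and the Jun window chr4:95052223-95052472 on the minus strand. The Junb window is chr8:84978749-84978998 on the minus strand and the Atf3 window chr1:191183334-191183583 on the minus strand.
Fos: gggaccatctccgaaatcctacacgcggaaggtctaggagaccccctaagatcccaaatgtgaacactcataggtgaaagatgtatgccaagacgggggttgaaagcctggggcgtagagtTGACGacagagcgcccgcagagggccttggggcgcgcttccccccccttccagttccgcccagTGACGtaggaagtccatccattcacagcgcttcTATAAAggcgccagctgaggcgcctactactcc
Fosb: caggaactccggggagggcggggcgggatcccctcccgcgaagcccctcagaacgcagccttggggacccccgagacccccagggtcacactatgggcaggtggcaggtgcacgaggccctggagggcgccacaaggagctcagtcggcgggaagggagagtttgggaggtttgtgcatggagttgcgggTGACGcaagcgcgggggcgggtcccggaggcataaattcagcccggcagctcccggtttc
Jun: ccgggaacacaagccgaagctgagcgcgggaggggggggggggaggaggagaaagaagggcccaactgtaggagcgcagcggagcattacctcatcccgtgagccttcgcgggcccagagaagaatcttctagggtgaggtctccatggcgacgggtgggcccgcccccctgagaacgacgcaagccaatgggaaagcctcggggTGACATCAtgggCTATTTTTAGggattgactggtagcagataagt
Junb: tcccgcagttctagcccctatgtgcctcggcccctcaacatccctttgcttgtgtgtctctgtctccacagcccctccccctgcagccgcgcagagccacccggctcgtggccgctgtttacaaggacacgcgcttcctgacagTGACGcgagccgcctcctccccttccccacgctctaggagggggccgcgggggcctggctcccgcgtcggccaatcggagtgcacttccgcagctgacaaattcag
Atf3: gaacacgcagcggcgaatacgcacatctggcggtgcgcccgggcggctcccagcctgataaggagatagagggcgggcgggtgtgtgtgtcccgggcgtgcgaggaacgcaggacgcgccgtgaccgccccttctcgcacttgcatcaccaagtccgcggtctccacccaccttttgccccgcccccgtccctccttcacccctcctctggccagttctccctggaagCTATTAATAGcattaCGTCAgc

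In whole windows of 300 bases, which add the first 50 bases of the transcript, TGACG was found on either strand in 4 of the 7 genes (Fos, Fosb, Junb and Atf3) and in 20.8% of all 32851 windows. Fos held it at 2 places, with its first base 129 and 66 bases before the start. The MEF2 box, bound by MEF2 factors, was found in Jun and Atf3, 2 of the 7, and in 0.557% of all windows. In Jun it began 33 bases before the start, next to TGACATCA at 45 bases. TGACATCA was found in Jun alone among the 7 and in 3.62% of all windows. TATAAA lay 33 bases before the start of Fos. In Junb it began on the first base after the RefSeq start, which is 30 bases before the start in GENCODE M21. It was found in the gene's direction in 8.32% of all windows. The AP-1 element TGACTCA (5.20% of all windows), the full cyclic AMP response element TGACGTCA (1.79%, each match of which also holds TGACG) and the CArG box bound by SRF (1.63%) had no match in these 7 windows. CCAAT, searched on both strands, was found in Jun, Junb and Atf3 and in 37.4% of all windows. The windows of Jund and Fosl2 held none of these motifs. The RefSeq start of Jund lies 1210 bases before that in GENCODE M21, and the windows of Atf3 and Fosl2 lie inside the loci that the authors' tables give for these genes. A match is a run of letters and was not tested as a binding site. Sequence outside these windows was not searched. The lack of a match, as for the CArG box, therefore says nothing of sites farther from the start.

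All 8 genes had lower FPKM in the week-3 library than in the week-0 library, and 7 of 8 were called lower, against 15.8% of all genes. None was called higher, against 12.9%. Their median log2 ratio was -1.93, and the single values ran from -0.79 for Fos to -5.85 for Atf3. Since the genes were selected on these same values, the counts are a description and support nothing. Fosl1 passed the limit on low values only through its week-0 level. Of the other 7, whose FPKM was 1 or more in both libraries, 6 were called lower, against 9.75% of all such genes. Among 556 genes with a mean FPKM of at least 100 over the 2 libraries, 10.1% were called lower. In that range lay 5 AP-1 genes, 4 of them called lower. Atf3, one of these 4, reached it only through its week-0 level (FPKM 589 at week-0 and 10.2 at week-3). The 8 genes together took 1.75% of all reads at week-0 against 0.673% at week-3, and their summed FPKM was 2.75 times lower.

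**Figure D1:**
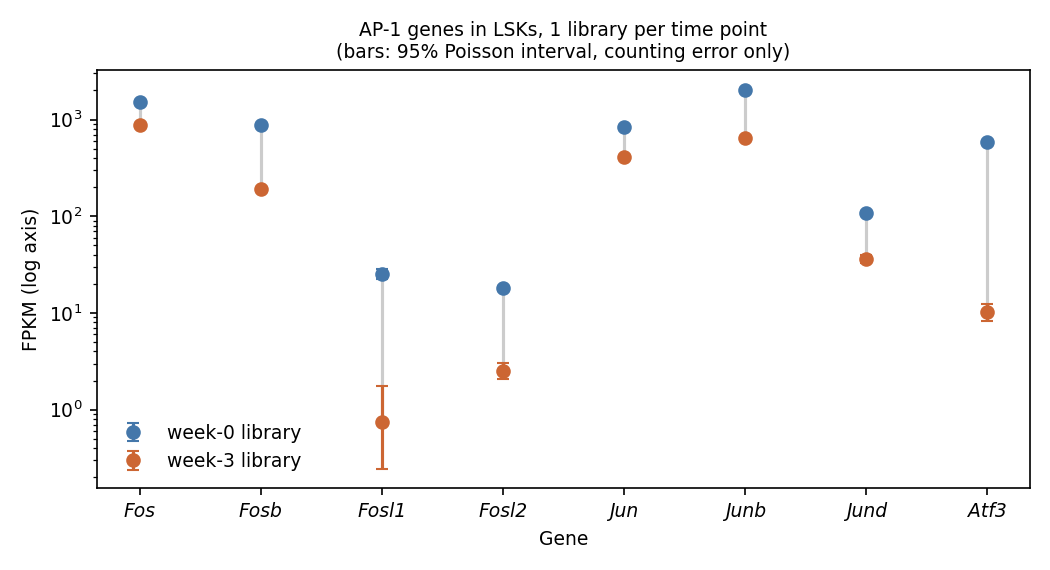
FPKM of the 8 AP-1 genes (log axis) in the week-0 and week-3 libraries, 1 library per time point, with bars for the exact 95% Poisson interval of the reads. Every week-0 point lies above its week-3 point, with the smallest gap for Fos (1529 and 884) and the largest for Atf3 (589 and 10.2).

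In the Fos family, Fos (ENSMUSG00000021250, chromosome 12 of GRCm38, 85473890 to 85477273, 4 exons) encodes the founding Fos protein, which pairs with Jun and carries a strong activation domain. The week-0 library had 36852 reads of it (FPKM 1529) and the week-3 library 13025 (FPKM 884). Its log2 ratio was -0.79 (95% interval -0.82 to -0.76), a level 1.73 times lower. This was the only one of the 8 genes that was not called, and with a ratio of 0.578 it lay just outside the limit. It was also the gene with the most reads of the 8 in both libraries.

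Fosb (ENSMUSG00000003545, chromosome 7, 19302721 to 19310045) encodes a Fos protein that also gives rise to a long-lived short form in other tissues. Its reads numbered 20854 (FPKM 875) at week-0 against 2764 (FPKM 190) at week-3. It was 4.61 times lower at week-3 (log2 ratio -2.21, 95% interval -2.26 to -2.15). By FPKM, Fosb stood just above Jun at week-0 and below it at week-3.

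Fosl1 (ENSMUSG00000024912, chromosome 19, 5447703 to 5455945) and Fosl2 (ENSMUSG00000029135, chromosome 5, 32135801 to 32157842) encode Fra-1 and Fra-2, which lack the strong activation domain of Fos and are usually induced later. For Fosl1, 275 reads (FPKM 25.3) were counted at week-0 and 5 reads (FPKM 0.754) at week-3. With so few reads at week-3, its log2 ratio of -5.07 is known only between -6.71 and -3.83, and it was -3.91 with a pseudocount of 1. For Fosl2, 1329 reads (FPKM 18.0) were counted at week-0 and 114 (FPKM 2.53) at week-3, with a log2 ratio of -2.83 (95% interval -3.12 to -2.56). Both were far below Fos and Fosb in FPKM, and both differed more between the libraries than either.

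In the Jun family, Jun (ENSMUSG00000052684, chromosome 4, 95049034 to 95052222, 1 exon) encodes the main Jun activator and the substrate for which the JNK kinases are named. It was counted 16823 times (FPKM 830) at week-0 and 5128 times (FPKM 414) at week-3. Its ratio of 0.498 lay just inside the limit of 0.5. The 95% interval of the log2 ratio ran from -1.05 to -0.96 and so held the limit, and counting error alone leaves this call unsure.

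Junb (ENSMUSG00000052837, chromosome 8, 84976909 to 84978748, 1 exon) encodes a Jun protein that can restrain Jun and limits the expansion of myeloid progenitors. Reads of Junb numbered 23787 (FPKM 2034) at week-0 but 4612 (FPKM 645) at week-3. It was 3.15 times lower at week-3 (log2 ratio -1.66, 95% interval -1.70 to -1.61). By FPKM it was the 18th gene of all at week-0 and the 78th at week-3.

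Jund (ENSMUSG00000071076, chromosome 8, 70697739 to 70700616, 1 exon) is the Jun gene usually described as constitutive and little induced by stimuli. At week-0 it had 2001 reads (FPKM 109), and at week-3 it had 403 (FPKM 36.0). Its log2 ratio of -1.60 (95% interval -1.76 to -1.45) was close to that of Junb, and their intervals overlapped. Jund was lower at week-3 by more than Fos or Jun, whose intervals did not reach its own.

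Atf3 (ENSMUSG00000026628, chromosome 1, 191170296 to 191218039) had the largest difference of the 8. The week-0 library had 9596 reads of Atf3 (FPKM 589), and the week-3 library had 102 (FPKM 10.2). It was 57.5 times lower at week-3 (log2 ratio -5.85, 95% interval -6.14 to -5.56). In rank among all genes by FPKM it went from 84 to 3686, whereas Fos went from 30 to 51.

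**Figure D2:**
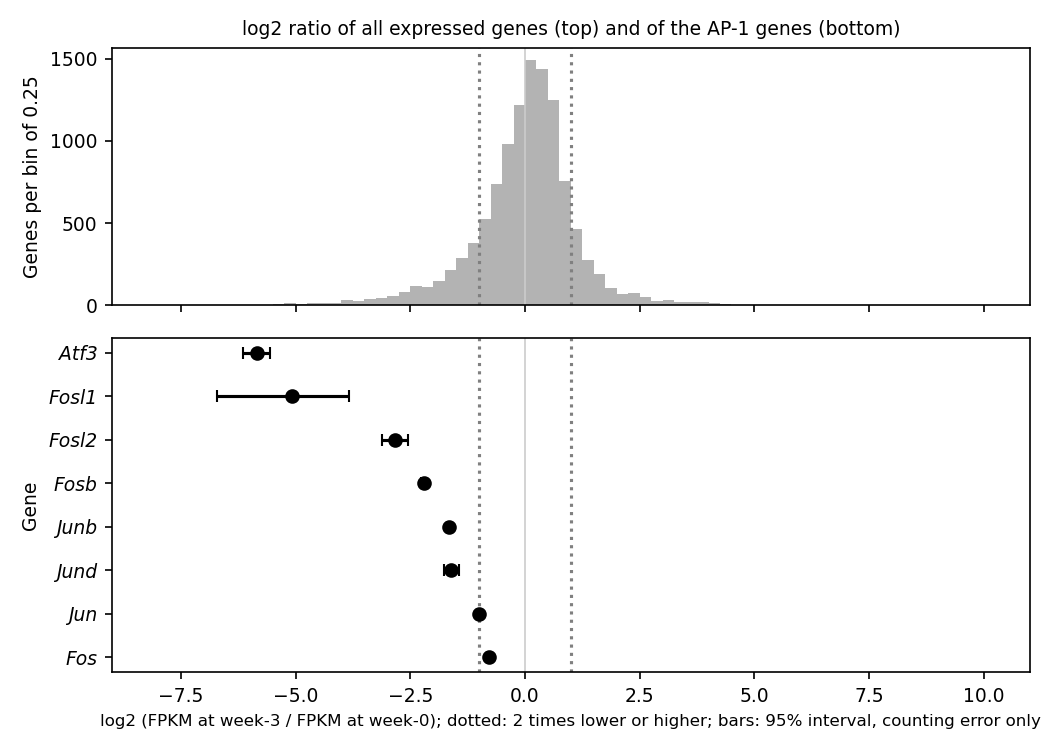
Top, number of expressed genes in each bin of 0.25 of the log2 ratio of FPKM at week-3 to FPKM at week-0, without the 382 genes at 0 in 1 library. Bottom, the same ratio for each AP-1 gene with its 95% counting interval, and dotted lines at the 2 limits. All 8 points lie below 0, from -0.79 (Fos) to -5.85 (Atf3), and the median of all genes is 0.10.

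The 8 log2 ratios spanned 5.06. Of 28 pairs of genes, the 95% intervals of the ratio overlapped in 2, Junb with Jund and Fosl1 with Atf3. In the other 26 they did not. Whether the ratios differ by more than the spread between mice was not tested. The reads that belong to these genes may be shared with overlapping genes, since the library kit does not mark the strand. In GENCODE M21, Jun overlaps Junos, its antisense gene (18 and 27 reads at week-0 and week-3), Fosl1 overlaps Ccdc85b (278 and 243 reads), Junb overlaps Prdx2 (2034 and 1225 reads), and Jund and Atf3 each overlap a non-coding gene. Fosl1 is the one of these with fewer reads than its neighbour, and its level is the least sure. For Junb, the GENCODE locus reaches down to 84974484 and that of the authors only to 84976909. Whether Prdx2 also overlaps the authors' shorter locus was not checked.

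By FPKM, which is per length, the order at week-0 was Junb, Fos, Fosb, Jun, Atf3, Jund, Fosl1 and Fosl2. At week-3 it was Fos, Junb, Jun, Fosb, Jund, Atf3, Fosl2 and Fosl1. In neither library did the counting intervals of neighbours in the order overlap. The upper places rest on the exon length that the authors divided by. Reads and FPKM give a length of 3792 bases for Fos, longer than its whole locus of 3384 bases, whereas the coding transcript in GENCODE M21 has 2108. Such a length beyond the locus was found for 734 of 11132 genes with over 20 reads at week-0. With GENCODE transcript lengths, Fos had 2750 reads per kilobase per 1000000 reads at week-0 and Junb 2069, so Fos was then the highest of the 8 in both libraries. The same lengths put Fosl2 above Fosl1 at week-0 and left the order at week-3 as it was. The ratio between libraries does not depend on the length, which was the same in both.

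The make-up of each family differed between the libraries. Summed over the Fos family, FPKM was 2447 at week-0 and 1077 at week-3, a log2 ratio of -1.18, and over the Jun family 2973 and 1095, a log2 ratio of -1.44. Fos made up 62.5% of the Fos family FPKM at week-0 and 82.1% at week-3, while Fosb went from 35.7% to 17.6%. Fosl1 and Fosl2 together stayed minor parts in both libraries, with Fosl1 at 1.04% and 0.0700%. In the Jun family, Junb went from 68.4% to 58.9% and Jun from 27.9% to 37.8%, with Jund at 3.68% and 3.29%. Fos family FPKM was 0.823 times Jun family FPKM at week-0 and 0.984 times at week-3. With GENCODE transcript lengths these ratios were 1.19 and 1.58, so which family stood higher depends on the length used, and its increase does not.

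**Figure D3:**
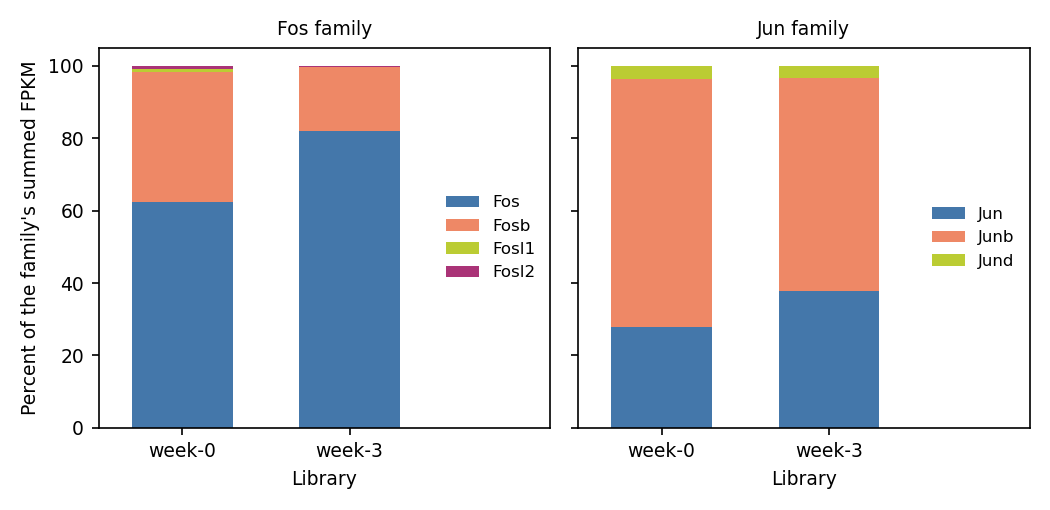
Percent of the summed FPKM of the Fos family (left) and the Jun family (right) contributed by each gene in the week-0 and week-3 libraries. Fos takes 62.5% of its family at week-0 against 82.1% at week-3, and Junb takes 68.4% and 58.9% of the Jun family.

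Of 37 kinases and transcription factors that drive Fos and Jun genes, 36 were expressed, 7 were called lower and 3 higher, beside 15.8% and 12.9% of all genes. Of the 36, 26 were within the limits, and the median log2 ratio was -0.15, beside 0.10 for all genes. Mapk3 (ERK1) had an FPKM of 8.11 at week-0 against 9.42 at week-3. Mapk8 (JNK1), which phosphorylates Jun, was called lower with 2.52 and 1.11, and Mapk14 (p38 alpha) had 18.5 and 18.3. Srf, which encodes the factor that binds CArG boxes, had an FPKM of 9.49 at week-0 and 8.17 at week-3 (log2 ratio -0.22, 95% interval -0.53 to 0.10). Of these 4 genes, Mapk8 alone was called.

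Among the called genes of this group, those with the most reads included Map2k3, a p38 kinase kinase (FPKM 78.3 at week-0 and 27.8 at week-3), Mef2c (7.50 and 2.82) and Elk4, an SRF partner (22.2 and 6.69). By role, the median log2 ratio was 0.05 for the ERK module, -0.27 for the JNK module, 0.17 for the p38 module, 0.47 for kinases downstream of these, -0.25 for SRF and its partners and -1.41 for the 3 MEF2 factors. Transcripts say nothing of the phosphorylation of these kinases, which was not measured in these libraries.

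Of 24 other bZIP genes whose products pair with Fos or Jun proteins or bind related sites, 20 were expressed. Of these, 7 were called lower and 1 higher (Batf, 25.5 and 53.3, named after its value was seen), beside 15.8% and 12.9% of all genes. The median log2 ratio was -0.39. Those called with the most reads were Atf4, a factor of the amino acid and unfolded protein response (FPKM 291 at week-0 against 129 at week-3), and Bach1, a heme-regulated repressor (39.3 and 4.42). Next were Mafk (23.0 and 4.86) and Maff (30.2 and 5.22), small Maf proteins without an activation domain. All 4 were lower at week-3. The log2 ratio of Bach1 was -3.15, and that of Atf4 was -1.17.

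Of 14 genes for the turnover of Fos and Jun mRNA or protein, 13 were found and expressed. Of these, 3 were called lower and none higher, beside 15.8% and 12.9% of all genes. The median log2 ratio was 0.24. The one not found, Cop1, is listed in the tables under its older symbol Rfwd2, which was counted. The 3 were Zfp36 (tristetraprolin), which binds AU-rich elements and speeds mRNA decay (FPKM 2695 at week-0 and 977 at week-3), its relative Zfp36l1 (38.4 and 1.94) and Pcbp2 (30.3 and 13.9). Zfp36 itself is an early response gene, and its log2 ratio of -1.46 was within the range of the 8 AP-1 genes. The ubiquitin ligases and kinases of the group had no called gene, but they are few and were not compared with the rest.

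Of 27 textbook targets of AP-1, 23 were expressed. Of these, 12 were called lower and 4 higher, beside 15.8% and 12.9% of all genes. The median log2 ratio was -1.19. Cdkn1a (p21), a cell cycle inhibitor, was counted 14243 times (FPKM 729) at week-0 and 1439 times (FPKM 120) at week-3. Vim, an intermediate filament gene, had an FPKM of 155 and 66.7, and Ccl4, a chemokine gene, had 1138 and 305. Plaur, the urokinase receptor gene, had 144 and 27.1. Each of these 4 was lower at week-3, with log2 ratios from -1.22 (Vim) to -2.60 (Cdkn1a). The 4 called higher, named after their values were seen, were the metallothioneins Mt1 (35.8 and 281) and Mt2 (6.51 and 15.3), the chemokine gene Ccl2 (3.54 and 26.0) and the gelatinase gene Mmp9 (0.359 and 2.28). Metallothionein genes are known for induction by metals and glucocorticoids.

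Other early response genes were lower in the same libraries. Over all genes, 15.8% were called lower and 12.9% higher. Of 11 Egr, Nr4a and Ier genes, 10 were called lower and none higher, with a median log2 ratio of -2.47. Egr1, a zinc finger factor induced by SRF and its partners, had 41528 reads at week-0 against 2859 at week-3, and Nr4a1, an orphan nuclear receptor gene, had 32122 and 1369. Their log2 ratios of -3.15 and -3.84 were within the range of the 8 AP-1 genes, from -0.79 (Fos) to -5.85 (Atf3). Of 13 Krüppel-like factor genes, 11 were expressed and 7 were called lower, with a median of -2.45, and Klf6 and Klf2 had 19450 and 12032 reads at week-0 against 1847 and 855 at week-3. Of 16 Dusp, Sprouty and Spred genes, which damp ERK and other kinases, 13 were expressed and 11 were called lower, with a median of -1.71. Dusp1, a phosphatase of p38 and JNK, had 17864 reads at week-0 against 3460 at week-3, and Dusp2 had 2822 and 640. Of 11 heat shock genes, 10 were expressed and 2 were called lower, with a median of 0.21 and a summed FPKM of 1299 at week-0 and 1290 at week-3. The other early response lists were known to be lower before they were counted here, and the lists were not tested against each other.

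**Figure D4:**
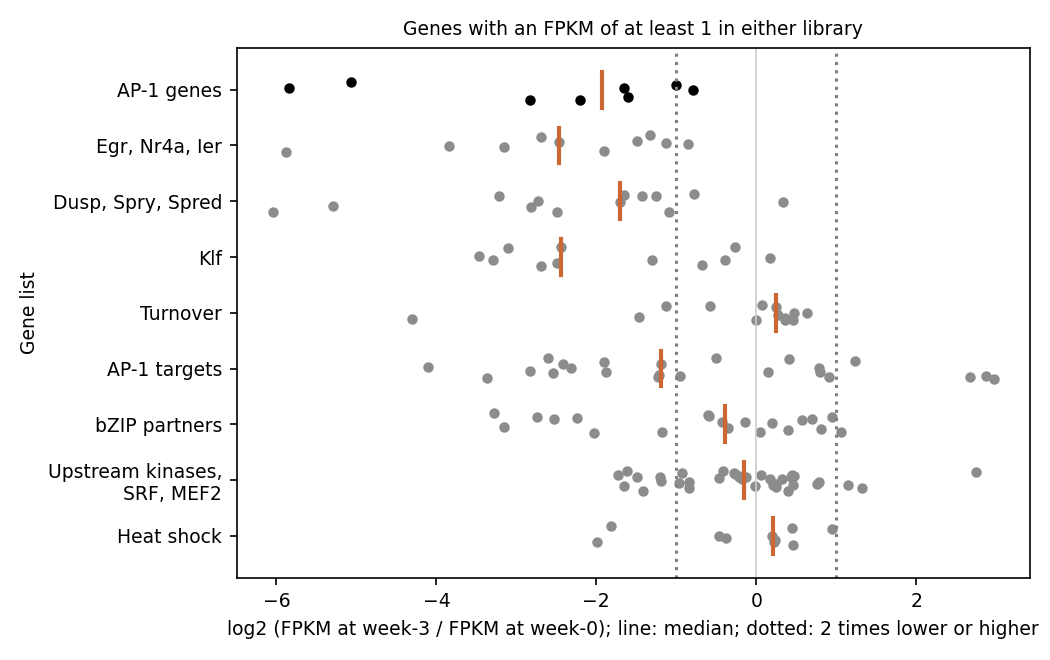
log2 ratio of FPKM at week-3 to FPKM at week-0 for each expressed gene of 9 lists, with the median of each list as a line and dotted lines at the limits. Egr3 (63 reads at week-0 but 0 at week-3) is counted in its median and cannot be drawn. The medians lie from -2.47 (Egr, Nr4a and Ier genes) to 0.24 (turnover genes), with the AP-1 genes at -1.93.

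The genes most like Fos, Jun, Junb and Jund, and not those most like the other 4 AP-1 genes, were looked for by distance in log2 FPKM over the 2 libraries, so the likeness takes in level as well as ratio. Nearest to Fos were Rps4x and Fau, which encode parts of the ribosome, and Actb, the cytoplasmic actin gene, at distances of 0.39, 0.46 and 0.47. Their log2 ratios, from -0.26 to -0.43, were all closer to 0 than that of Fos. Nearest to Jun were Eef2, an elongation factor gene, Rpl37 and H2-D1, a class I histocompatibility gene, at 0.31, 0.38 and 0.39. Nearest to Junb was Ier2, another early response gene, with FPKM of 2007 at week-0 against 711 at week-3 and a distance of 0.14, followed by Ctla2a (0.67) and Zfp36 (0.72). Nearest to Jund were Crip1 (0.10), Rela, an NF-kappaB subunit gene (0.14), and Dntt, the terminal transferase gene of lymphoid progenitors (0.16). With 2 libraries such distances order genes and cannot show that they vary together. In the GO terms listed by the authors, the 8 AP-1 genes shared 59 terms, the narrowest of which, on sequence-specific binding near core promoters, was held by 329 genes.

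Markers of other cells also differed between the libraries, in which 15.8% of all genes were called lower and 12.9% higher. In bulk RNA, fewer cells of a type and less RNA per cell cannot be told apart. Of 10 B and plasma cell markers, 7 were expressed and 6 were called lower, with a summed FPKM of 10204 at week-0 and 633 at week-3, nearly all from Ighm, Igkc and Jchain, while the B cell gene Ms4a1 had 9 reads and 2. All 8 erythroid markers were called lower, with a summed FPKM of 1281 and 86.1. All 8 mast cell and basophil markers were called higher, with a summed FPKM of 120 and 3203, and Tpsb2 and Mcpt4 were at 0 at week-0. Of 9 granulocyte markers, 7 were called higher, with 236 and 1047. Of 9 monocyte, macrophage and dendritic cell markers, 3 were expressed, with a summed FPKM of 83.8 and 194. Called lower was 1 (Cd83, 514 reads and 1), and called higher was 1 (Ly6c2, 1118 and 3148 reads). Adgre1 had 3 and 5 reads. T cell genes were near 0 in both libraries (Cd3e 5 and 0 reads), and Nkg7 gave nearly all of the T and NK list's sum of 281 and 423. Endothelial and stromal markers summed to 7.81 and 6.21, and megakaryocyte markers to 50.5 and 47.6. Of the former, Pecam1 had 260 and 189 reads, Emcn 108 and 19, and Cdh5 3 and 0. Of 12 stem and progenitor markers, 11 were expressed and 4 were called lower, Flt3 among them, with a summed FPKM of 406 and 236. Mitochondrially encoded genes took 1.24% of the reads at week-0 against 2.16% at week-3. The part that other cells or RNA quality had in the levels of the AP-1 genes was not tested. Time, doxycycline and any difference in sorting or library preparation cannot be told apart from BA in this design.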

How the data were processed

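LSKs were sorted after lineage depletion, and cDNA of their RNA was made with the SMARTer Ultra Low Input kit and sequenced as paired ends. Reads were mapped to GRCm38 (mm10) with TopHat2 2.0.9, as named in the submitters' processing notes. The counting tool and the annotation release are not given in the sources used here. Deposited for each gene were its read counts, which are whole and not normalized, and its FPKM, which the authors scaled by an exon length and by the reads on genes.

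Both tables were joined by gene identifier. With 1 library per time point, no test was run, and the log2 ratio of FPKM without a pseudocount is given. For each ratio, the week-3 part of the gene's reads was given an exact Clopper-Pearson interval, which was converted to the scale of the ratio, and levels were given exact Poisson intervals. Both reflect counting error alone. The cDNA was amplified and no molecular identifiers were used, so reads need not be independent molecules and the intervals may be too narrow. The calculation was tested on simulated data. These held counting error only, and genes with few reads were not scored, so the simulation cannot show that the intervals cover other error. TMM factors came from edgeR 4.0.16 and size factors from DESeq2 1.42.0 in R 4.3.3, and the rest was done in Python 3.11.15. Transcript lengths and overlaps come from GENCODE M21, and promoter sequences from RefSeq on GRCm38.p6.

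The AP-1 genes and all lists were chosen with earlier results of these data known. Named from each list were at most 4 called genes with the most reads (partners, upstream, turnover and target genes) or the 2 genes with the most reads (other early response lists), plus Srf, Mapk3, Mapk8, Mapk14, Kit, Ly6a, Bcr, Abl1, the 3 genes nearest in pattern to each of Fos, Jun, Junb and Jund, and markers. Some results under this rule are not reported here.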

Additional observations from a re-analysis of the deposited data

How the results depend on the processing

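No paired analysis was possible because each time point has 1 library, and for the same reason no replicate could be left out. All 8 AP-1 genes had a log2 ratio below 0 under every scaling and pseudocount tried (32 of 32 values). TMM scaling lowered every log2 ratio by 0.11 and turned the median of all genes to -0.011. The median of the AP-1 genes was -2.04 with TMM and -2.02 with median-of-ratios scaling, the Fos family -1.30 and -1.27, and the Jun family -1.55 and -1.53. Summed reads scaled by library totals gave -1.36 for the Jun family. The number called lower was 4 with a fold limit of 4 and 8 with a limit of 1.5, where 7.12% and 24.2% of all genes were called lower and 4.12% and 26.0% higher. With a pseudocount of 1, these shares were 10.1% and 7.03%. The next results come from settings chosen after seeing the data. Where FPKM had to reach 1 in both libraries, the median of the AP-1 genes was -1.66. Of all such genes, 9.75% were called lower and 8.18% higher. Where the mean FPKM had to reach 100, the AP-1 median was also -1.66, and 4 AP-1 genes were called lower. Of all genes in that range, 10.1% were called lower and 7.19% higher. Atf3 reached a mean FPKM of 100 only through its week-0 level. Restricting motif searches to the 250 bases before the start left TATAAA in Fos alone, 1 gene in place of 2. With 5 reads at week-3, Fosl1 had a log2 ratio of -5.07 without a pseudocount and -3.91 with a pseudocount of 1. Changes below 3 reads, 0.472 per 1000000 reads for week-0 and 0.772 for week-3, could not be seen.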
